A study of Homo sapiens with 12 samples.

Results

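The SRC family kinases are 8 genes here, LYN, SRC, FYN, YES1, LCK, FGR, BLK and FRK, taken by gene symbol from the annotation of the arrays. They had 18 of the 22215 probe sets of the smaller array type and 25 of the 54613 probe sets of the larger array type, 7 of which are on the larger type only. The family was chosen on the intensities of LYN in 22Rv1-DR against 22Rv1 cells, whose difference was already known from these arrays. Its values in that comparison are therefore a description, with no test. DU145-DR and 22Rv1-DR are prostate cancer cells made resistant to docetaxel, a drug that stabilises microtubules, and grown with it, and DU145 and 22Rv1 are the parental lines, grown without it. All 4 groups were kept in RPMI medium with serum, and each had 3 arrays, replicates 1 and 2 on the smaller type and replicate 3 on the larger type. The sources used here do not give the dose, the length of selection or whether a resistant line is a single clone, and resistance cannot be told apart from the presence of the drug. DU145 is a human prostate carcinoma line that lacks androgen receptor activity, and 22Rv1 is a human prostate carcinoma line that has it.

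SRC family kinases are tyrosine kinases that sit at the inner face of the cell membrane and pass on signals from receptors, integrins and immune receptors. The kinase CSK keeps them switched off by phosphorylating a tyrosine in their tail, and phosphatases such as PTPRA remove that phosphate. SRC, FYN and YES1 are found in most cell types, LYN, LCK, FGR and BLK are best known from blood cells, and FRK is a more distant relative of epithelial cells. LYN and SRC have both been studied in prostate cancer, and drugs that block the family, such as dasatinib, have been tested there. Arrays measure mRNA, so they say nothing of kinase activity or phosphorylation.

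The values are probe-set intensities on a linear scale. On the smaller array type the DU145 and DU145-DR arrays had a higher floor, with a 5th percentile of 35.8 to 38.6, than the 22Rv1 and 22Rv1-DR arrays, with 11.5 to 12.3, so levels are compared only within a line there. On the larger type the 4 arrays had nearly the same distribution, with a 5th percentile of 10.9 to 11.0 and a median of 37.5 to 39.7. KLK2, a secreted protease of the prostate, had 1218, 1090 and 760 in 22Rv1-DR cells (replicates 1 to 3) and 885, 826 and 304 in 22Rv1 cells, but on the larger type only 18.2 in DU145-DR and 22.6 in DU145 cells. Of 11 prostate and epithelial markers 7 were tested. In DU145-DR cells, where 11.0% of all genes were called, 3 fell, 0 rose and 4 did not pass. In 22Rv1-DR cells, where 5.56% were called, 1 fell, 0 rose and 6 did not pass. The median change was -0.01 in DU145-DR and -0.45 in 22Rv1-DR cells. KLK2, KLK3 and HOXB13 lay below the 40th percentile of the DU145 and DU145-DR arrays of the larger type. Their DU145-DR changes of -0.01, 0.06 and 0.05 are those of dim genes, and the DU145-DR median is the value of KLK2. CDH1, which encodes E-cadherin, fell in both resistant lines, with 38.6, 40.2 and 7.46 in DU145-DR cells against 2369, 3641 and 3281 in DU145 cells, and 269, 284 and 425 in 22Rv1-DR cells against 2937, 3126 and 3929 in 22Rv1 cells. Its changes were -5.74 ± 0.23 in DU145-DR and -3.38 ± 0.23 in 22Rv1-DR cells (limma adjusted p = 7.74e-06 and 0.000116). EPCAM (-2.36 ± 0.21, adjusted p = 0.000366) and the keratin gene KRT18 (-1.01 ± 0.22, adjusted p = 0.0207) also fell in DU145-DR cells, and gave 0.03 and -0.45 in 22Rv1-DR cells. KRT8, the other keratin gene of these markers, passed in neither line. It gave 0.11 in DU145-DR (limma adjusted p = 0.867; 0.46 on replicate 3) and -0.05 in 22Rv1-DR cells. HOXB13, a prostate transcription factor, gave -0.71 and KLK3, the gene of prostate-specific antigen, -0.78 in 22Rv1-DR cells, and neither passed (adjusted p = 0.316 and 0.398). How these differences bear on the SRC family values was not tested.

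LYN had the largest difference of the 8 members. In 22Rv1-DR cells its probe set with the highest mean, 202625_at, gave 2487 and 1965 on the arrays of replicates 1 and 2, against 115 and 97.7 in 22Rv1 cells. Replicate 3, on the other array type, gave 2798 in 22Rv1-DR cells and 167 in 22Rv1 cells. All 3 resistant arrays were thus far above all 3 parental arrays, 21.6, 20.1 and 16.8 times as high pair by pair. The change, resistant minus parental in log2(intensity + 16), was 4.19 ± 0.21 (SE from limma, 2 arrays per group) on replicates 1 and 2 and 3.95 on replicate 3. It was the 8th largest rise of 9713 genes. In bulk RNA, more cells with LYN mRNA and more LYN mRNA per cell cannot be told apart.

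The other 2 probe sets of LYN had the same pattern. Probe set 202626_s_at gave 1978, 1734 and 2759 in 22Rv1-DR cells and 103, 106 and 158 in 22Rv1 cells. Probe set 210754_s_at gave 1652, 1552 and 1846 in 22Rv1-DR cells and 107, 85.6 and 126 in 22Rv1 cells. Their changes were 3.96 and 3.86 on replicates 1 and 2, close to that of 202625_at. On replicate 3 the 3 probe sets ranked 25, 27 and 31 by rise among the 41032 probe sets of the larger type with 1 gene symbol.

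**Figure D1:**
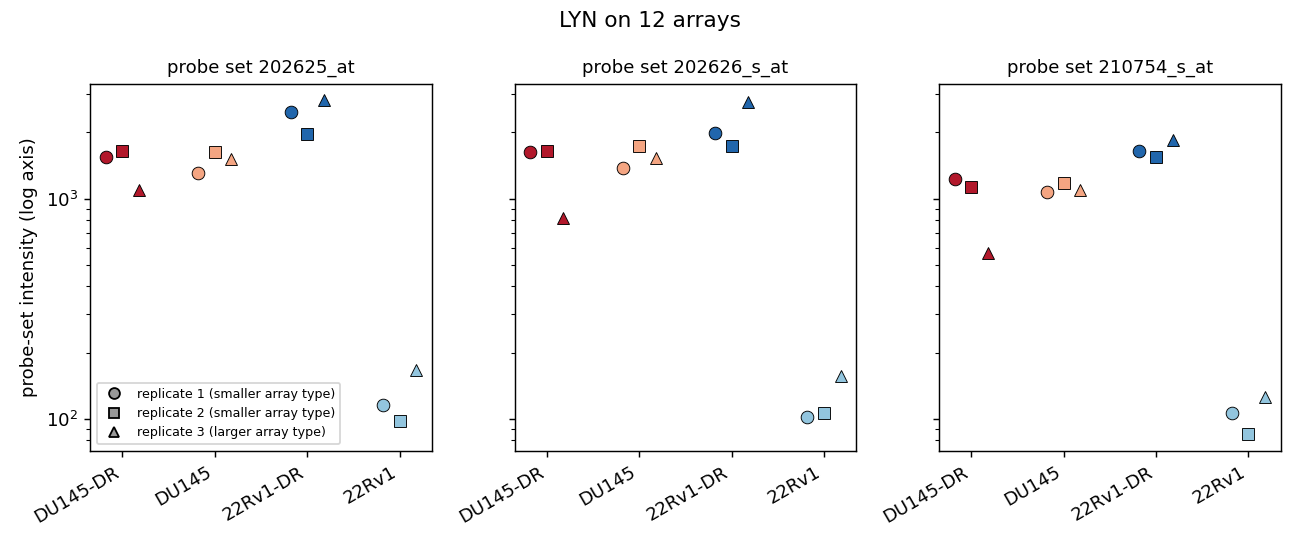
Intensity (log axis) of the 3 LYN probe sets on each of 12 arrays, with 1 point per array and the shape giving the replicate number. In each panel the 3 points of 22Rv1-DR lie far above those of 22Rv1, while the DU145-DR and DU145 points overlap on replicates 1 and 2 and the DU145-DR point of replicate 3 is the lowest of its line.

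Parental 22Rv1 cells held the low end of LYN. Within their own arrays the 3 LYN probe sets lay between the 55.5th and 73.4th percentile of all probe sets in 22Rv1 cells and between the 93.5th and 97.7th in 22Rv1-DR cells. In DU145-DR cells they lay between the 78.7th and 93.3rd percentile, and in DU145 cells between the 79.6th and 95.6th. On the larger type, where the arrays have like distributions, 202625_at gave 2798 in 22Rv1-DR, 1510 in DU145, 1098 in DU145-DR and 167 in 22Rv1 cells, in that order. With 1 array per group the spread behind that order is unknown.

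LYN did not pass the test in DU145-DR cells. Probe set 202625_at gave 1541 and 1641 in DU145-DR cells, against 1305 and 1629 in DU145 cells, and the ranges of the 2 groups overlapped. The change was 0.12 ± 0.21 (limma adjusted p = 0.864), with a 95% interval of -0.36 to 0.60. Replicate 3 gave the opposite sign on all 3 LYN probe sets, with differences of -0.45, -0.90 and -0.93. For 210754_s_at these were 568 in DU145-DR and 1098 in DU145 cells. On replicate 2 of the smaller type 2 of the probe sets were also slightly lower in DU145-DR cells, at 0.953 and 0.959 times the DU145 value. With all 12 arrays in 1 fit the change was -0.07 (adjusted p = 1.00).

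Because LYN is a kinase of blood cells, markers of such cells were read beside it. Of 12 blood cell markers 11 were analysed, and their summed intensity was 268 to 281 in 22Rv1-DR cells and 279 to 285 in 22Rv1 cells on the smaller type, and 307 in 22Rv1-DR and 290 in 22Rv1 cells on the larger. PTPRC, which encodes the common leukocyte antigen CD45, had 17.3, 16.8 and 10.9 in 22Rv1-DR cells and 16.9, 16.8 and 11.9 in 22Rv1 cells, below the 25th percentile of each array. By limma 0 of the 6 tested blood cell markers passed in either line, and 0 in each had an unadjusted p under 0.05. Over all 9713 genes 2344 in DU145-DR and 1574 in 22Rv1-DR cells had one. All 6 markers passed the filter on dim genes only through the DU145 or DU145-DR arrays, whose floor is higher. In 22Rv1 and 22Rv1-DR cells each lay under the filter intensity of 74.0 on the smaller type, so the count there is one of dim genes.

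SRC, the founding member, did not pass the test in DU145-DR cells. Its brightest probe set, 213324_at, was higher on each resistant array than on the parental array of the same number in both lines. It gave 324 and 322 in DU145-DR cells and 234 and 294 in DU145 cells, which do not overlap. The change was 0.28 ± 0.28 (adjusted p = 0.676), with an interval of -0.37 to 0.93, and 0.32 on replicate 3. It was the only 1 of the 7 tested members whose DU145-DR and DU145 arrays did not overlap, where 42.0% of all tested genes had no overlap. In 22Rv1-DR cells it gave 167, 93.1 and 217, against 119, 79.3 and 129 in 22Rv1 cells. Each 22Rv1-DR array was above the 22Rv1 array of the same number, with a change of 0.32 ± 0.28 on replicates 1 and 2 and 0.68 on replicate 3, but the groups overlapped on the smaller type. The other SRC probe sets on the smaller type, 221281_at and 221284_s_at, lay below the 45th percentile of every array and were too dim to be tested, and 221281_at was lower in DU145-DR cells on replicates 1 and 2 (66.3 and 44.3, against 73.0 and 50.6 in DU145 cells). The 4 SRC probe sets on the larger type only differed in sign in DU145-DR cells, with differences from -0.46 to 0.06, and ran from 0.04 to 0.22 in 22Rv1-DR cells. The lowest, 1565082_x_at, gave 39.1 in DU145-DR and 59.7 in DU145 cells.

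FYN, which acts with SRC in adhesion signalling, differed in 22Rv1-DR cells on only 1 of the array types. Probe set 210105_s_at gave 154 and 125 in 22Rv1-DR cells, against 63.1 and 57.7 in 22Rv1 cells, a change of 1.02 ± 0.24 with no overlap. On replicate 3 it gave 78.8 in 22Rv1-DR cells and 72.0 in 22Rv1 cells, a difference of 0.11. LYN and FYN were the 2 members higher by at least 1 on the log2 scale with no overlap on the smaller type, where 3.26% of all tested genes were, a share from which nothing is read because LYN brought the family forward. The mean of the 3 FYN probe sets gave 0.49 in place of 1.02. In DU145-DR cells FYN gave 315 and 377, against 242 and 367 in DU145 cells, a change of 0.20 ± 0.24 (adjusted p = 0.753; interval -0.34 to 0.74). Replicate 3 gave 140 in DU145-DR and 80.4 in DU145 cells, a difference of 0.69.

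YES1, close to SRC in sequence and role, had high intensities throughout. Probe set 202933_s_at, between the 91.4th and 98.5th percentile of every array, gave 5008 and 7082 in DU145-DR cells and 5257 and 7591 in DU145 cells. The change was -0.08 ± 0.25 (adjusted p = 0.951; interval -0.65 to 0.48), and replicate 3 gave 3743 in DU145-DR and 2288 in DU145 cells, a difference of 0.71 with the opposite sign. In 22Rv1-DR cells it gave 1641 and 1596, against 1270 and 1152 in 22Rv1 cells, a change of 0.42 ± 0.25, and on replicate 3 1859 in 22Rv1-DR and 1607 in 22Rv1 cells, a difference of 0.21. The second bright probe set, 202932_at, gave 0.45 on replicates 1 and 2 and -0.06 on replicate 3 in 22Rv1-DR cells, so the sets disagreed in sign there. LYN, FYN and YES1 were the 3 of 7 members whose 22Rv1-DR and 22Rv1 arrays did not overlap on the smaller type, where 52.4% of all tested genes had no overlap. Nothing is read from this share either, as it counts LYN.

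**Figure D2:**
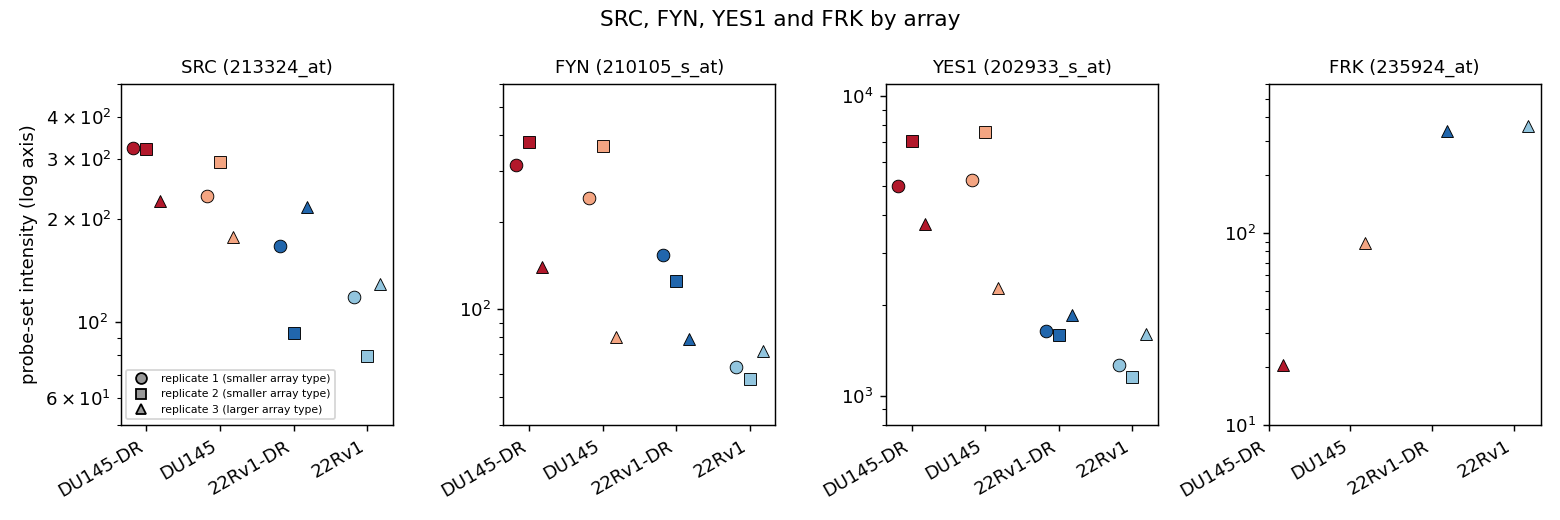
Intensity (log axis, its own range in each panel) of 1 probe set each of SRC, FYN, YES1 and FRK, with 1 point per array. SRC, FYN and YES1 differ by less than 2.5 times between paired arrays, and FRK, measured by this probe set on the larger array type only, is at 20.5 in DU145-DR against 88.0 in DU145.

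FRK, a kinase of epithelial cells, could be followed only on the larger array type. Its probe set on both types, 207178_s_at, was dim, with 35.8 and 43.1 in DU145-DR cells and 37.5 and 42.5 in DU145 cells, and it was the 1 member left out of the test as dim. The second probe set, 235924_at, on the larger type only, gave 20.5 in DU145-DR cells and 88.0 in DU145 cells, a difference of -1.51. It gave 338 in 22Rv1-DR and 362 in 22Rv1 cells, a difference of -0.10. The DU145-DR value lay at the 33.0th percentile of its array and the DU145 value at the 64.8th, and the 22Rv1-DR value lay at the 82.3rd and the 22Rv1 value at the 83.0th. There is 1 array per group, so this difference has no replicate check. The epithelial gene EPCAM gave 236 in DU145-DR and 1783 in DU145 cells on the same arrays, and whether the 2 differences are linked was not tested. Of the 25 member probe sets on the larger type it was the only 1 that differed by at least 1 on the log2 scale between DU145-DR and DU145 cells, where 11.5% of all probe sets did. Between 22Rv1-DR and 22Rv1 cells the 3 LYN probe sets were the only ones to do so, where 4.15% of all probe sets did. These are probe sets of 1 gene, and nothing is read from their share because LYN brought the family forward.

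LCK, FGR and BLK, kinases of lymphocytes and myeloid cells, stayed near the floor. Each of their 5 probe sets lay below the 43rd percentile of every one of the 12 arrays. Their genes passed the filter on dim values only through the DU145 and DU145-DR arrays, whose floor is higher. LCK gave 79.3 and 63.6 in DU145-DR cells and 87.4 and 69.1 in DU145 cells (change -0.11 ± 0.22, adjusted p = 0.906). FGR gave 91.1 and 111 in DU145-DR cells and 101 and 124 in DU145 cells (change -0.13 ± 0.20, adjusted p = 0.843). BLK gave 124 and 92.4 in DU145-DR cells and 142 and 93.1 in DU145 cells (change -0.09 ± 0.23, adjusted p = 0.933). The groups overlapped for all 3 genes. In 22Rv1-DR cells their changes ran from -0.10 for FGR to 0.03 for LCK, and from 0.07 to 0.23 on replicate 3.

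**Figure D3:**
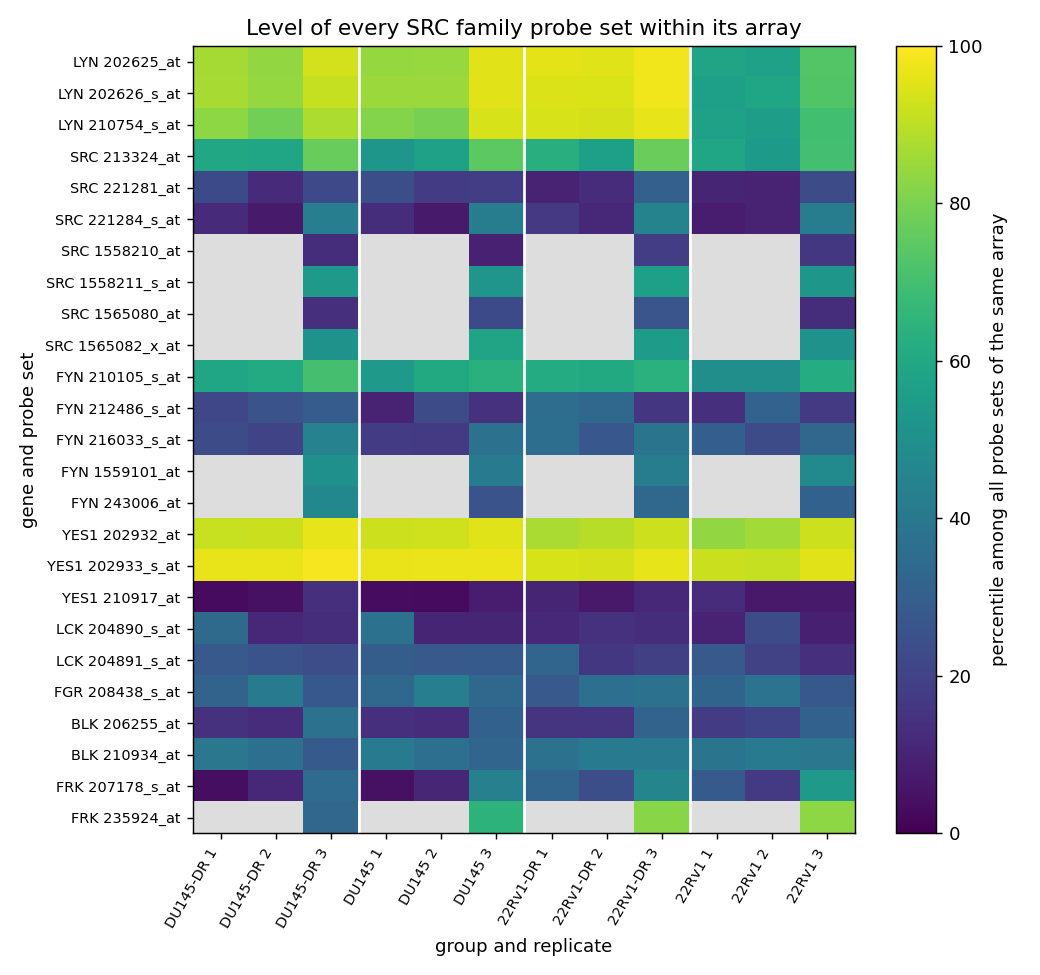
Percentile of every SRC family probe set (rows) among all probe sets of the same array, for the 12 arrays (columns, 3 per group), with grey where the probe set is not on that array type. The LYN rows change between 22Rv1-DR and 22Rv1, 2 YES1 rows are high in all columns, and the LCK, FGR and BLK rows stay below the 43rd percentile.

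By counts, 0 of the 7 tested members changed in DU145-DR cells at a limma adjusted p under 0.05, where 11.0% of the 9713 genes did. At an unadjusted p under 0.05 there were 0 of the 7 members, beside 2344 of the 9713 genes. LCK, FGR and BLK were among the 7 only through the higher floor of the DU145 or DU145-DR arrays, so these counts include dim genes. Their changes ran from -0.13 to 0.28, with a median of -0.08 beside -0.01 for all genes. In 22Rv1-DR cells, where 5.56% of all genes passed and no member was tested, the changes of the 7 ran from -0.10 to 4.19 with a median of 0.32, beside 0.01 for all genes. Nothing is read from that range or median, as they count LYN.

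**Figure D4:**
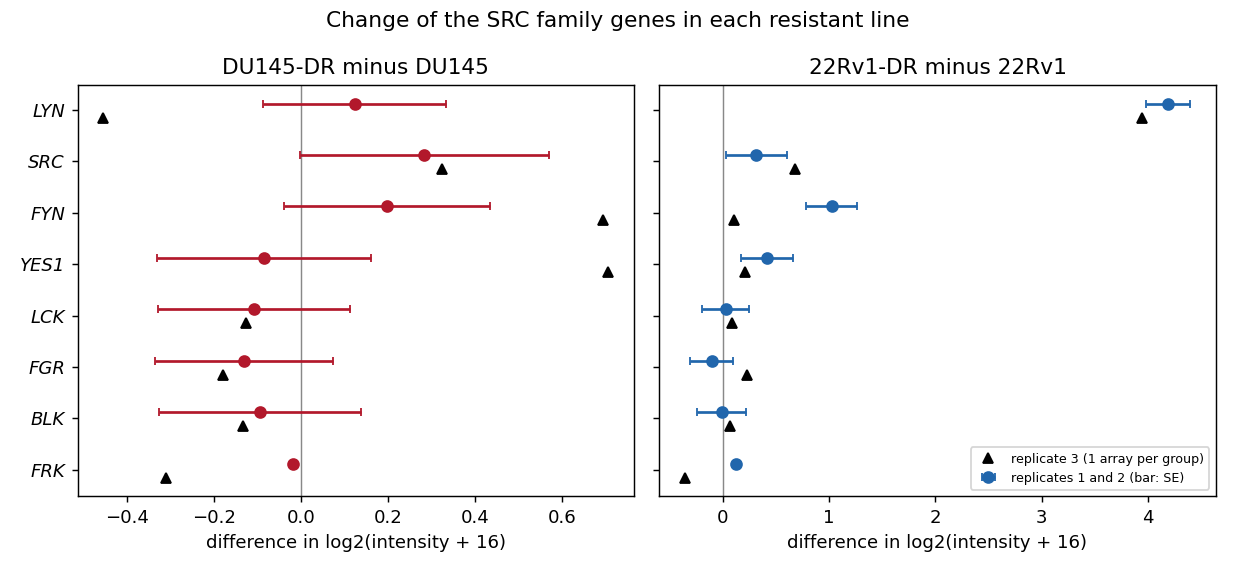
Difference in log2(intensity + 16), resistant minus parental, for each member in DU145-DR (left) and 22Rv1-DR (right, on a wider axis), with circles and SE bars from replicates 1 and 2 and triangles for replicate 3 (1 array per group); FRK has no bar because it was not tested. LYN in 22Rv1-DR stands at 4.19 and 3.95, and the other circles and triangles on that side lie between -0.36 and 1.02.

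None of the tested genes around LYN on chromosome 8 passed in 22Rv1-DR cells. Of the 8 analysed genes on each side, 11 were tested. In 22Rv1-DR cells 0 of the 11 rose and 0 fell by limma, where 5.56% of all genes were called, with changes from -0.40 to 0.52. At an unadjusted p under 0.05 there was 1 of the 11, beside 1574 of all 9713 genes. On replicate 3 all 16 neighbours ran from -1.62 to 0.66 there, and FAM110B, the lowest, gave 96.3 in 22Rv1-DR and 329 in 22Rv1 cells. SOX17 and PLAG1 lay near the floor in both groups, where a fall could not be seen. TGS1, an RNA cap methyltransferase and the nearest analysed gene on one side, gave 0.41 ± 0.45 (adjusted p = 0.870). On the other side CHCHD7, a mitochondrial protein gene, gave 0.52 ± 0.20 (adjusted p = 0.219) and -0.34 on replicate 3. In DU145-DR cells, where LYN did not pass, 3 of the 11 rose, and 11.0% of all genes were called in either direction. At an unadjusted p under 0.05 there were 5 of the 11 there, beside 2344 of all 9713 genes. The median change of the 11 was 0.46, and on replicate 3 all 16 neighbours ran from -0.28 to 2.15. UBXN2B gave 1.26 ± 0.35 and did not pass (adjusted p = 0.0546; 1.11 on replicate 3). PLAG1, a zinc finger transcription factor, gave 792 and 1060 in DU145-DR cells and 208 and 304 in DU145 cells, a rise of 1.80 ± 0.24 (adjusted p = 0.00232; 2.15 on replicate 3). CHCHD7 rose by 1.02 ± 0.20 (adjusted p = 0.0134; 1.32 on replicate 3) and ATP6V1H, a subunit of the vacuolar proton pump, by 0.70 ± 0.18 (adjusted p = 0.0441; 0.64 on replicate 3).

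**Figure D5:**
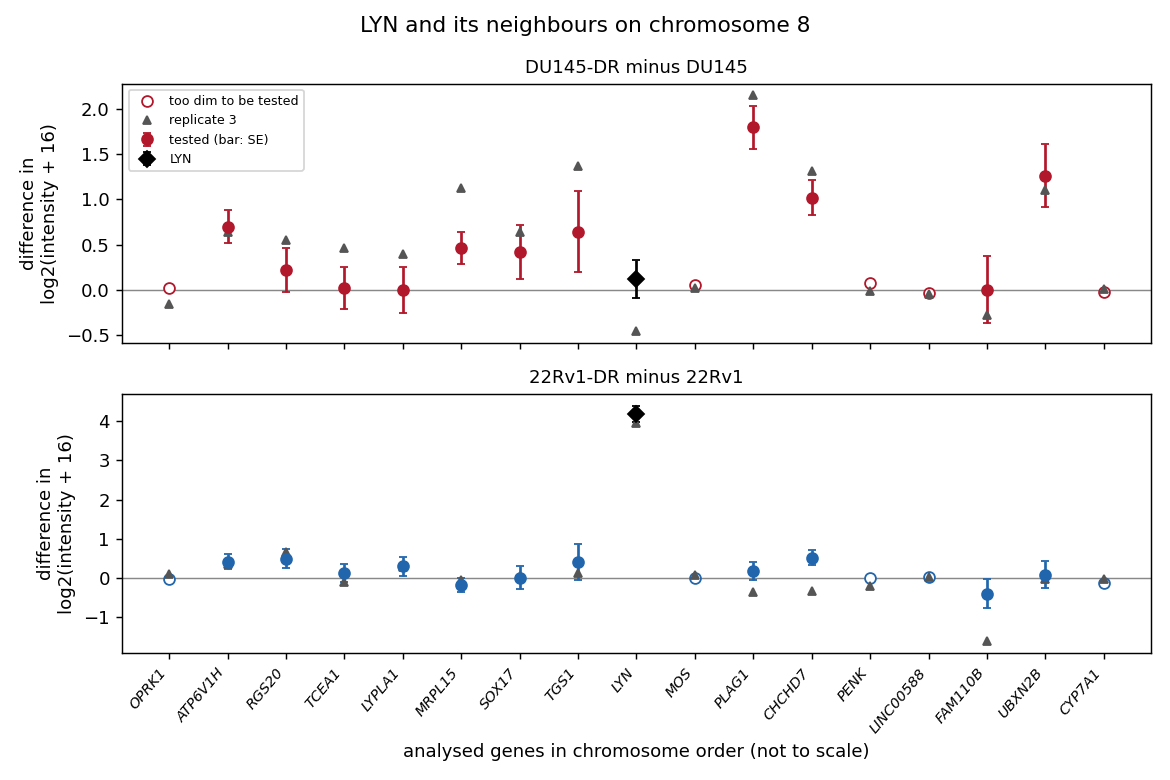
Difference in log2(intensity + 16), resistant minus parental, for LYN (diamond) and the 8 analysed genes on each side of it in chromosome order, in DU145-DR (top) and 22Rv1-DR (bottom), with SE bars, open circles for genes too dim to be tested and triangles for replicate 3. In 22Rv1-DR LYN stands at 4.19 while the circles of the tested neighbours lie between -0.40 and 0.52 and the triangles of all neighbours between -1.62 (FAM110B) and 0.66. In DU145-DR PLAG1 (1.80) and CHCHD7 (1.02) rose.

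Regulators of the family mostly did not pass. Of 23 regulators 19 were tested. In DU145-DR cells, where 11.0% of all genes were called, 1 rose, 2 fell and 16 did not pass, with a median of -0.02 beside -0.01 for all genes. In 22Rv1-DR cells, where 5.56% of all genes were called, 0 of the 19 passed by limma, with a median of -0.03 beside 0.01. At an unadjusted p under 0.05 there were 3 of the 19 there, beside 1574 of all 9713 genes, and 6 of the 19 in DU145-DR cells, beside 2344. CBL, PTPRE, PTPN22, SLA, SOCS1 and SOCS6 lay under the filter intensity of 74.0 on every 22Rv1 and 22Rv1-DR array of the smaller type. They were tested only through the DU145 or DU145-DR arrays, whose floor is higher. The 22Rv1-DR count and median are thus in part those of dim genes. CSK, which switches the family off, gave 657 and 826 in DU145-DR cells and 662 and 843 in DU145 cells (change -0.02 ± 0.21, adjusted p = 0.995). On replicate 3, however, it gave 592 in DU145-DR and 350 in DU145 cells, a difference of 0.73 with no replicate check. It gave 331 and 315 in 22Rv1-DR cells and 367 and 345 in 22Rv1 cells (change -0.13 ± 0.21, adjusted p = 0.967), with the opposite sign on replicate 3 (0.41). PTPN11, the phosphatase SHP2, gave -0.17 ± 0.19 in DU145-DR cells (adjusted p = 0.722; -0.03 on replicate 3) and 0.42 ± 0.19 in 22Rv1-DR cells (adjusted p = 0.333; 0.08 on replicate 3). CBLB, a ubiquitin ligase that marks active kinases for degradation, gave 416 and 538 in DU145-DR cells and 193 and 251 in DU145 cells. It rose by 1.05 ± 0.21 (adjusted p = 0.0171; 1.65 on replicate 3), but its second, dimmer probe set gave -0.11, and it no longer passed without DU145 replicate 1 (adjusted p = 0.0973), with the mean of its probe sets (0.0910) or with only the 4 DU145-DR and DU145 arrays (0.111). CBLC, the epithelial ligase of the same family, gave 90.5 and 64.9 in DU145-DR cells and 365 and 215 in DU145 cells. It fell, with a change of -1.68 ± 0.29 (adjusted p = 0.00820; -1.44 on replicate 3), and it too no longer passed without that array (adjusted p = 0.0533). PTPRO, a receptor phosphatase, fell, with a change of -1.13 ± 0.24 (adjusted p = 0.0204; -1.09 on replicate 3), while its second, dim probe set gave 0.09, and the call was lost without 3 of the 8 arrays (DU145 replicate 1, DU145 replicate 2 and DU145-DR replicate 1; adjusted p = 0.117, 0.0623 and 0.0580), with only the 4 arrays (0.0900), with 12 arrays (0.0757) and with the mean of its probe sets (0.0856). PAG1, which anchors CSK at the membrane, was on the larger type only, where its 3 probe sets gave 111, 512 and 215 in 22Rv1-DR cells and 64, 282 and 92.4 in 22Rv1 cells, differences of 0.67, 0.82 and 1.09 with no replicate check.

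Of 40 substrates and adaptors at cell adhesions 35 were tested. In DU145-DR cells 2 rose, 0 fell and 33 did not pass, with a median of -0.01. In 22Rv1-DR cells 1 rose, 1 fell and 33 did not pass, with a median of 0.00. Both shares, 2 of 35, were near or below the 11.0% of all genes called in DU145-DR and the 5.56% called in 22Rv1-DR cells. EFS, TNS1, TLN1, DOK2, GAB1, CAV1, AFAP1, SH3PXD2A, ABL2, ASAP1, DAB2 and ADAM15 lay under the filter intensity of 74.0 on every 22Rv1 and 22Rv1-DR array of the smaller type. They were tested only through the DU145 or DU145-DR arrays. The 22Rv1-DR count and median are thus in part those of dim genes. DAB2, an endocytic adaptor, gave 545 and 502 in DU145-DR cells and 109 and 152 in DU145 cells, and rose by 1.89 ± 0.20 (adjusted p = 0.000792), but by only 0.23 on replicate 3. PIK3R1, the regulatory subunit of PI3-kinase, rose by 0.82 ± 0.22 (adjusted p = 0.0460; 0.35 on replicate 3). This call was lost without any 1 of the 8 arrays, where the change ran from 0.72 to 0.93. It was also lost under 4 other settings (adjusted p from 0.0612 to 0.594) and with every probe set as a feature (0.0543). TNS3, a tensin that links integrins to actin, gave 1144, 1136 and 1380 in 22Rv1-DR cells and 200, 174 and 135 in 22Rv1 cells. It rose by 2.52 ± 0.52 (adjusted p = 0.0258; 3.21 on replicate 3). TNS3 passed no longer when a DU145, 22Rv1 or 22Rv1-DR array was left out, where the change ran from 2.42 to 2.61. The call was also lost with dim genes kept (adjusted p = 0.0518) or at a pseudocount of 64 (0.05). CDCP1, a membrane protein that SRC phosphorylates, gave 37.5, 27.3 and 36.0 in 22Rv1-DR cells and 135, 97.0 and 249 in 22Rv1 cells. It fell, with a change of -1.44 ± 0.24 (adjusted p = 0.00867; -2.35 on replicate 3), and the call was lost without 22Rv1 replicate 1 or 22Rv1-DR replicate 2 (adjusted p = 0.0974 and 0.0972). PTK2, the focal adhesion kinase that binds SRC, gave 0.78 ± 0.28 in DU145-DR cells and 0.80 ± 0.28 in 22Rv1-DR cells and passed in neither (adjusted p = 0.120 and 0.171; 0.86 and 0.22 on replicate 3). CAV1, the main protein of caveolae, gave -0.95 ± 0.40 in DU145-DR cells and -0.38 ± 0.40 in 22Rv1-DR cells (adjusted p = 0.188 and 0.854). Replicate 3 gave -1.07 in DU145-DR and, with the opposite sign, 0.38 in 22Rv1-DR cells. BCAR1, the SRC substrate p130Cas, was on the larger type only, where its 2 probe sets gave 236 and 204 in DU145-DR cells and 150 and 61.4 in DU145 cells.

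Partners of LYN in blood cell signalling were tested for 16 of 30 genes, the rest being too dim or not analysed here. In DU145-DR cells 2 fell, 0 rose and 14 did not pass, and in 22Rv1-DR cells 1 fell, 0 rose and 15 did not pass, with a median of -0.10 in DU145-DR and -0.0006 in 22Rv1-DR cells. Most of the 16 were tested only through the DU145 or DU145-DR arrays, whose floor is higher. TEC, PLCG2, CD79A, CD79B, CD72, FCGR2B, INPP5D and IL3RA lay under the filter intensity of 74.0 on every 22Rv1 and 22Rv1-DR array of the smaller type. The 22Rv1-DR count and median are thus largely those of dim genes. At an unadjusted p under 0.05 there were 3 of 16 in each line, beside 2344 of all 9713 genes in DU145-DR and 1574 in 22Rv1-DR cells. After adjustment 11.0% of all genes in DU145-DR and 5.56% in 22Rv1-DR cells were called. LAT2, a membrane adaptor of immune receptor signalling, gave 617, 560 and 174 in 22Rv1-DR cells and 271, 237 and 54.6 in 22Rv1 cells, which do not overlap within an array type, but it did not pass (change 1.17 ± 0.29, adjusted p = 0.0613; 1.43 on replicate 3). HCLS1, a substrate of LYN in blood cells, was too dim to be tested and gave 59.7, 39.95 and 64.9 in 22Rv1-DR cells and 28.2, 19.6 and 18 in 22Rv1 cells. SYK, the kinase that acts after LYN at immune receptors, gave 0.07 ± 0.33 in 22Rv1-DR cells (adjusted p = 1.00; 0.67 on replicate 3). KIT, the stem cell factor receptor that LYN binds in blood cells, gave 20.5, 20.8 and 13.9 in 22Rv1-DR cells and 64.9, 52.0 and 198 in 22Rv1 cells. It fell, with a change of -1.02 ± 0.19 (adjusted p = 0.0155; -2.84 on replicate 3), and the call was lost without any 1 of the 22Rv1 and 22Rv1-DR arrays (adjusted p from 0.0841 to 0.204) or at a pseudocount of 64 (0.0912). KIT too was bright enough to be tested only through the DU145 and DU145-DR arrays. SKAP1, an adaptor of FYN in T cells, fell in DU145-DR cells, with a change of -1.22 ± 0.19 (adjusted p = 0.00588; -0.42 on replicate 3), a call lost with only the 4 DU145-DR and DU145 arrays (0.0607) and with 12 arrays (0.239). It was bright enough to be tested only through the DU145 arrays. VAV1, an exchange factor of blood cells, fell there too, with a change of -0.78 ± 0.19 (adjusted p = 0.0353; -1.41 on replicate 3), which held when DU145-DR replicate 1 was left out but not when any of the other 7 arrays was (adjusted p from 0.0791 to 0.132), nor with the arrays shifted to 1 median (0.0684), with only the 4 arrays (0.202) or with 12 (0.195). PTK6, a related kinase of epithelial cells, gave -0.63 ± 0.23 in DU145-DR and -0.34 ± 0.23 in 22Rv1-DR cells and passed in neither (adjusted p = 0.130 and 0.618).

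The genes whose pattern over the 8 arrays of the smaller type was most like that of LYN were SLC29A3, a nucleoside transporter gene (Pearson r = 0.986), NSMCE4A, a subunit of a DNA repair complex (0.977), NPR3, the natriuretic peptide clearance receptor (0.972), KLHL3, a ubiquitin ligase adaptor (0.968), and PAK2, a kinase of the cytoskeleton (0.963). Their changes in 22Rv1-DR cells were 1.71, 1.62, 2.72, 0.55 and 1.86, all smaller than that of LYN. On replicate 3 they were 1.59, 1.01, 1.96, -0.09 and 1.27, so KLHL3 did not keep the sign. These correlations are across arrays that share the difference in floor between the lines, and they are a description. For FYN and YES1 the most alike genes were SUB1 (0.995) and TCF20 (0.999), whose patterns followed the offset between the lines.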

How the data were processed

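Gene expression was measured on Affymetrix arrays in 12 samples. The authors deposited an intensity per probe set, not in log2 units, and per the submitters' processing notes MAS5 and RMA were used, with roles, order and versions not given in the sources used here. Probe sets with 1 gene symbol in the supplied annotation (19064 and 41091) were used, except 31 and 59 of Y-linked or X-inactivation genes. A gene was read by its brightest probe set whose name does not end in _x_at, where it had such a set. Genes above the 40th percentile of all values (intensity 74.0) in no group were left out, leaving 9713. The 8 arrays of the smaller type were fitted on log2(intensity + 16) with limma 3.58.1 in R 4.3.3 (a term per group, no block, lmFit and eBayes), with two-sided p-values adjusted by Benjamini-Hochberg over the 9713 genes. The fit was tested on simulated data. Replicate 3 gave differences with no test. Members and lists were chosen with earlier results of these data known. Named genes are all members, up to 6 genes per list and line past the threshold, CSK, PTK2, BCAR1, CAV1 and PTPN11, 8 neighbours of LYN on each side, and the 5 genes most correlated with a member spanning at least 2 on the log2 scale, of which the first is given for FYN and YES1. PAG1, SYK, LAT2, HCLS1, STAT3, SKAP2, PTK6, PTPRC and the named epithelial markers fall outside this rule and were chosen after their values were seen. Neighbours come from the RefSeq annotation of GRCh38.p14, used for order only. The number of arrays limits the precision. Separate cultures are not stated, so p-values measure the spread between these arrays, which may be technical. Alternatives were other normalizations, pseudocounts, filters, probe-set rules, sample sets, a block and leaving out each array. Figures were drawn with matplotlib 3.10.9.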

Additional observations from a re-analysis of the deposited data

Results flagged for a closer look

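Of the 70 tested list genes, 8 changed differently in the 2 resistant lines at an adjusted p under 0.05 by limma's test of the difference, taken as the change in 22Rv1-DR minus the change in DU145-DR, beside 8.0% of all 9713 genes. For TNS3 the difference was 3.21 ± 0.73 (adjusted p = 0.0335), with changes of 2.52 in 22Rv1-DR and -0.69 in DU145-DR cells, and 3.21 and -2.32 on replicate 3. For PTPRO it was 2.03 ± 0.34 (adjusted p = 0.00937), with 0.90 in 22Rv1-DR and -1.13 in DU145-DR cells, and 0.26 and -1.09 on replicate 3. For CBLC it was 1.72 ± 0.41 (adjusted p = 0.0375), with 0.04 in 22Rv1-DR and -1.68 in DU145-DR cells, and -0.54 and -1.44 on replicate 3. For SKAP1 it was 1.38 ± 0.27 (adjusted p = 0.0184), with 0.16 in 22Rv1-DR and -1.22 in DU145-DR cells, and 0.10 and -0.42 on replicate 3. For DAB2 it was -1.80 ± 0.28 (adjusted p = 0.00690), with 0.09 in 22Rv1-DR and 1.89 in DU145-DR cells, and 0.02 and 0.23 on replicate 3.

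The other 3 passed in neither line alone. STAT3, a transcription factor that SRC activates, differed by 1.67 ± 0.41 (adjusted p = 0.0411), with 0.63 in 22Rv1-DR and -1.04 in DU145-DR cells, and 0.41 and -1.66 on replicate 3. The adaptor SKAP2 differed by 1.34 ± 0.28 (adjusted p = 0.0253), with 0.64 in 22Rv1-DR and -0.69 in DU145-DR cells, and 0.42 and -1.30 on replicate 3. LAT2 differed by 1.64 ± 0.42 (adjusted p = 0.0485), with 1.17 in 22Rv1-DR and -0.48 in DU145-DR cells, and 1.43 and -0.07 on replicate 3.

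Outside the lists, the epithelial markers EPCAM (2.39 ± 0.30, adjusted p = 0.00233) and CDH1 (2.35 ± 0.32, adjusted p = 0.00361) had lower changes in DU145-DR than in 22Rv1-DR cells. PLAG1 beside LYN differed by -1.62 ± 0.34 (adjusted p = 0.0226), with 0.18 in 22Rv1-DR and 1.80 in DU145-DR cells, and -0.35 and 2.15 on replicate 3. It lay near the floor in both 22Rv1-DR and 22Rv1 cells. The difference of LYN between the lines was not tested, because LYN was chosen for it.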

How the results depend on the processing

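LYN stayed between 3.74 and 4.37 in 22Rv1-DR cells under all 20 alternatives, with 3.74 at a pseudocount of 64 and 4.02 to 4.36 without each array in turn. No member passed in DU145-DR cells under any of them (0 of 131 member values, lowest adjusted p = 0.132, SRC with the replicate block). The signs of 5 members, none of them called, turned there: with all 12 arrays in 1 fit LYN gave -0.069 and YES1 0.18, and without each array in turn LYN ranged from -0.0346 to 0.28, FYN from -0.0859 to 0.48, YES1 from -0.35 to 0.18, LCK from -0.25 to 0.0339 and BLK from -0.36 to 0.17.

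Genes changed in DU145-DR cells, 1069 as reported, numbered 1625 after quantile normalization, 292 with only the 4 arrays compared, 3445 with the replicate block, 462 with 12 arrays, and 489 to 1523 without each array in turn. Those in 22Rv1-DR cells, 540 as reported, numbered 1266 with only the 4 arrays, 2147 with the block, 225 with 12 arrays, and 214 to 866 without each array. The list genes changed in DU145-DR cells, 7 as reported, were 12 after quantile normalization, 11 at a pseudocount of 64, 2 with the 4 arrays, 22 with the block, 3 with 12 arrays, and 2 to 11 without each array. In 22Rv1-DR cells, 3 as reported, they were 7, 1, 10 and 17 under the first 4 of these, and 0 to 7 without each array. The cause was not tested. Same-numbered arrays of a line deviated together across genes (r = 0.693 for DU145 and 0.792 for 22Rv1), but with 2 pairs per line the pairing rests on the numbers alone. Signal near the floor limits LCK, FGR, BLK and FRK.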
